A study of Mus musculus with 96 samples.

Results

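The genes described here build the mitotic spindle, attach chromosomes to it, and take the cell out of mitosis. They are 40 named genes, found by symbol among the 22497 genes of the deposited tables, and all 40 passed the expression floor of a mean of 0 log2 RPKM (an RPKM of 1, RPKM being reads per kilobase of transcript scaled to library size) in WT epidermis, as did 11087 genes in all. The checkpoint group is Bub1, Bub1b, Mad2l1 and Ttk. The centromere and kinetochore group is Cenpa, Cenpe, Cenpf, Ndc80, Nuf2, Spc24, Spc25 and Knstrn. The kinase and passenger group is Plk1, Aurka, Aurkb, Birc5, Cdca8 and Incenp. The spindle motor group with other microtubule-binding proteins is Kif11, Kif15, Kif22, Kif2c, Kif4, Tpx2, Nusap1 and Hmmr. The midzone and cytokinesis group is Kif20a, Kif20b, Kif23, Prc1, Racgap1, Ect2 and Anln. The anaphase and exit group is Ube2c, Cdc20, Cdca3, Pttg1 and Espl1, and the mitotic chromosome genes are Top2a and Mki67.

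Messenger RNA was sequenced from the back-skin epidermis of 8-week-old female C57BL/6 mice held in constant darkness, at circadian times (CT) 0, 4, 8, 12, 16 and 20 h, with 4 mice per time in each of 4 genotypes (96 libraries). RERE mice carried Arntl stopFL/stopFL together with K14Cre tg/wt and with Syt10-Cre tg/wt. EpiRE mice carried Arntl stopFL/stopFL together with K14Cre tg/wt, and Syt10-Cre was wt/wt. BRE mice carried Arntl stopFL/stopFL together with Syt10-Cre tg/wt, and K14Cre was wt/wt. WT mice carried Arntl wt/wt with both drivers, K14Cre wt/tg and Syt10-Cre tg/wt. Arntl codes for BMAL1, without which the molecular clock does not run, and the floxed stop cassette silences the allele until Cre removes it. K14 drives Cre in keratinocytes of stratified epithelia and Syt10 in the brain, so the clock gene was restored in brain and epidermis in RERE, in epidermis in EpiRE and in brain in BRE. The labels give the CT of each library. For EpiRE and BRE, the match of deposited values to those CT rests on the column names of the deposited tables alone.

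In textbook terms, a cell entering mitosis activates Aurora and Polo kinases, builds a spindle from microtubules and motor proteins, and holds the spindle checkpoint on until every kinetochore is attached. The anaphase-promoting complex with its activator CDC20 then marks securin and cyclin B for destruction, separase opens the cohesin rings, and the cell divides at the midzone. Messenger RNA of most of these genes accumulates in G2 and mitosis, when the MuvB-containing activator complexes act on a promoter element named the cell cycle genes homology region (CHR), often with upstream CCAAT boxes. In mouse epidermis, divisions take place in the basal layer, and the share of cells in each cell cycle phase is known to vary over the day.

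RefSeq promoter windows (build GRCm38.p6, 250 bases before to 50 after the start, 1 window a gene) were found for 35 of the 40 genes. They were searched on both strands for the CHR letters TTTGAA or TTCGAA and for CCAAT, which do not overlap each other. The stretches below run from 100 bases before to 30 after the start and are shown because they belong to genes the results turn on. They are the strongly rhythmic Ube2c, Cdc20, Cenpf, Cenpa and Top2a, then Ttk, which stood apart in BRE, the strongly rhythmic Nusap1 and the non-rhythmic Pttg1. Capitals mark the CHR letters or CCAAT on either strand, so TTCAAA and ATTGG are the same letters read from the other strand.
Ube2c (chr2:164769829-164769958, plus strand): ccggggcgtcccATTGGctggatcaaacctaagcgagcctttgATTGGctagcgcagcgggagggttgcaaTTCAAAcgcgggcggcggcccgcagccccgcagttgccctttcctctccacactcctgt
Cdc20 (chr4:118437314-118437443, minus strand): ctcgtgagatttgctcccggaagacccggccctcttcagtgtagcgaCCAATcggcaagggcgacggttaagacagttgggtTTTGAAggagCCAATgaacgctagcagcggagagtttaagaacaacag
Cenpf (chr1:189688057-189688186, minus strand): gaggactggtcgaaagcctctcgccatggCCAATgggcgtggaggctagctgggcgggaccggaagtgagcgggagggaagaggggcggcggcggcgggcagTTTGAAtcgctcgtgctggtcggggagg
Cenpa (chr5:30666786-30666915, plus strand): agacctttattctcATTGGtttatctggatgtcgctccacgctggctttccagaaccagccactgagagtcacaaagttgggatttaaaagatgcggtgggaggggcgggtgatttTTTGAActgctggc
Top2a (chr11:99024160-99024289, minus strand): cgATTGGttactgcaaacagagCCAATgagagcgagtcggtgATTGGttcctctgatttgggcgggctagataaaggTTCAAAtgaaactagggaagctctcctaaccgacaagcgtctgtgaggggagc
Ttk (chr9:83834589-83834718, plus strand): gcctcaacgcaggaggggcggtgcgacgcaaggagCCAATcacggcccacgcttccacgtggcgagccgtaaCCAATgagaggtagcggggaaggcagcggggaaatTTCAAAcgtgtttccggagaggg
Nusap1 (chr2:119618198-119618327, plus strand): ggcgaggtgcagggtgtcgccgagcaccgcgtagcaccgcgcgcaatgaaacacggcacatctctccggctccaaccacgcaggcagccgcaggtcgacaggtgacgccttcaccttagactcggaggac
Pttg1 (chr11:43425952-43426081, minus strand): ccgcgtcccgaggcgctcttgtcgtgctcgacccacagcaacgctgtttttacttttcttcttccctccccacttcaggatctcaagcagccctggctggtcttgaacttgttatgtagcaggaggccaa

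The CHR letters lay in 28 of the 35 windows (80.0%), against 13.7% of the 8704 windows of genes above the floor in WT. Within 50 bases of the start they lay in 26 windows (74.3%), against 3.53% of those genes, while 51 to 250 bases before the start they lay in 7 of the 35, against 10.6%. CCAAT lay in 24 windows (68.6%), against 39.0%, and 23 windows held both. In Ube2c the first CHR base was 29 bases before the start, in Top2a 23 and in Cdc20 18 bases before it, counting the start as base 1. In Cenpf, Ttk and Cenpa it was base 3, base 8 and base 17 of the transcribed part. The E-box letters CACGTG, which CLOCK and BMAL1 can bind, lay in 4 windows (11.4%), against 10.8%. The stretches of Nusap1 and Pttg1 printed above held none of the CHR or CCAAT letters, and these 2 genes had among the largest and the smallest fitted amplitude in WT. For Pttg1 the start used lay inside the annotated gene, which begins at base 43426251 on the minus strand, outside the window. Letters around that outer start were not searched. The starts used for Cenpa, Ube2c and Cdc20 also lay inside the annotated genes. These begin at base 30666777 for Cenpa, 164769898 for Ube2c and, on the minus strand, 118437352 for Cdc20. The positions given above count from the starts used. The median WT amplitude, the height of a fitted 24 h cosine above its mean, was 0.73 with the CHR letters and 0.68 without them. A match describes letters and does not show that a factor bound there.

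Library depth recovered from the deposited values was 11.1 to 19.9 M reads with a median of 15.2 M, and the median reads per library of a member ran from 101 to 3364 in WT. Arntl averaged 3.89 ± 0.78 log2 RPKM in RERE, 4.16 ± 0.31 in EpiRE, 3.88 ± 0.14 in BRE and 3.88 ± 0.83 in WT (SD, n = 24 each), so its mean level did not separate the genotypes. Its values ran from 3.68 to 4.37 in BRE and from 2.51 to 4.97 in WT. Krt5, a keratin of basal keratinocytes, averaged 12.52 log2 RPKM in RERE, 12.57 in EpiRE, 12.53 in BRE and 12.58 in WT, and Krt1, a keratin of suprabasal layers, 11.25 in RERE, 11.26 in EpiRE, 11.20 in BRE and 10.84 in WT, while the endothelial genes Cdh5, Kdr and Tie1 had a median of 0 reads. Residuals of 4 libraries stood apart from those of their genotype, at 1.42 to 1.74 times its median, namely RERE CT0 replicate 2, RERE CT16 replicate 2, EpiRE CT0 replicate 1 and EpiRE CT8 replicate 1. Counts of calls without them are given with the RERE and EpiRE results.

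Averaged over the 40 genes, mitotic messenger RNA in RERE and WT was highest at CT0 (3.05 log2 RPKM in RERE and 3.10 in WT) and lowest at CT8 (1.43 in RERE and 1.88 in WT). The next highest time was CT4 in RERE, at 2.59, and CT20 in WT, at 2.95, while the next lowest was CT12 in both (2.01 in RERE and 1.89 in WT). In RERE the mean over the genes was 3.12, 3.18, 2.89 and 3.01 log2 RPKM in the 4 libraries at CT0, and 1.17, 1.46, 1.64 and 1.44 at CT8. In WT it was 3.44, 2.60, 3.06 and 3.28 at CT0, and 1.71, 1.85, 1.67 and 2.31 at CT8. In both genotypes the groups at CT0 and CT8 did not overlap. In EpiRE the mean was 2.36, 1.52, 0.88 and 2.39 at CT16, and 3.11, 2.95, 3.13 and 2.74 at CT20, so adjacent times held the lowest and the highest group. In BRE it was 2.25, 1.59, 3.01 and 3.41 at CT0, and 2.76, 2.90, 1.10 and 1.93 at CT4, so libraries of 1 time spread over most of the range seen in that genotype, but at CT16 the BRE libraries were close together, at 2.39, 2.67, 2.60 and 2.55. Over 24 libraries the mean level was alike, at 2.30 ± 0.62 in RERE, 2.43 ± 0.50 in EpiRE, 2.41 ± 0.57 in BRE and 2.44 ± 0.54 in WT (SD). In bulk tissue, fewer cells in mitosis and less messenger RNA per cell cannot be told apart.

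**Figure D1:**
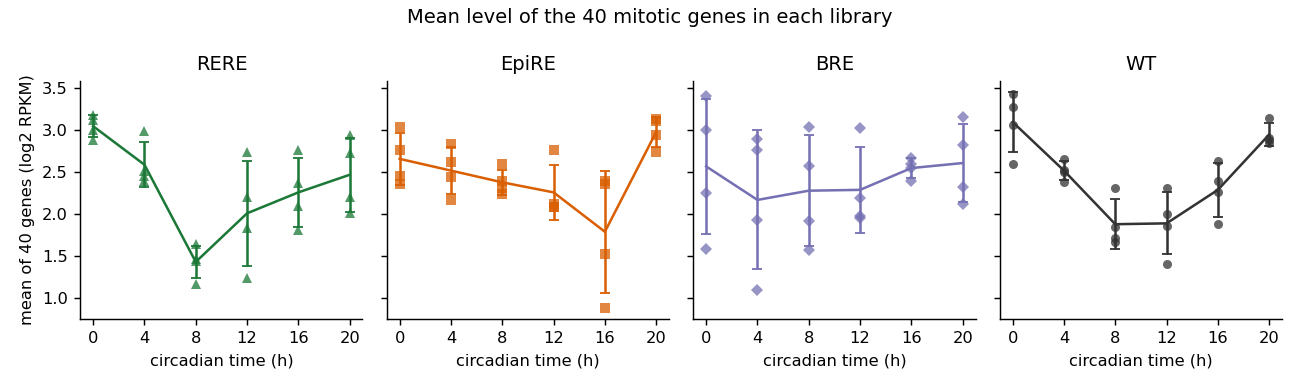
Mean log2 RPKM of the 40 mitotic genes in each library (points, 4 per time), against circadian time in hours, for RERE, EpiRE, BRE and WT from left to right. Lines join the means of 4 libraries and bars are their SD. RERE and WT libraries at CT8 lie below those at CT0, the 4 EpiRE libraries at CT20 lie between 2.74 and 3.13, and BRE libraries at CT4 run from 1.10 to 2.90.

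Rhythm was tested in each genotype with limma on a 24 h cosine and sine, and a gene was called at a Benjamini-Hochberg adjusted p under 0.05 over all genes tested. In RERE 36 of the 40 genes were called, against 19.4% of all 11032 genes tested. In EpiRE 0 of 40 were called, against 0.0% of 11061 genes, and the adjusted p ran from 0.307 to 0.808 in limma. At an unadjusted p under 0.05 the EpiRE count was 24 of 40, against 12.6% of genes, but 4 without replicate 1, 3 without replicate 2 and 18 without the libraries that stood apart. With CT as a factor in place of the cosine it was 37 unadjusted, against 20.8% of genes, and 0 adjusted, against 1.8%. In BRE 0 of 40 were called, against 1.14% of 10970 genes, with limma adjusted p of 0.272 to 0.915, and 0 of 40 had an unadjusted p under 0.05, against 18.9% of genes. In WT 39 of 40 were called, against 33.1% of 11087 genes.

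The median amplitude of the 40 genes was 0.64 in RERE, 0.37 in EpiRE, 0.24 in BRE and 0.72 in WT on the log2 scale, beside 0.10, 0.07, 0.07 and 0.12 over all genes tested in the same order of genotypes. Amplitudes as large as the members' median were reached by 1.27% of genes in RERE, 2.87% in EpiRE, 6.33% in BRE and 0.983% in WT. A fitted amplitude cannot fall below 0 and rises with the spread between libraries. In BRE the median SD among libraries of a time was 0.69 for the 40 genes and 0.15 over all genes. The BRE amplitude of 0.24 is therefore not evidence of a rhythm. The amplitude counts the height above the mean alone, and the median fold between the highest and lowest of the 6 time means was 3.25 in RERE, 2.42 in EpiRE, 1.44 in BRE and 2.58 in WT. The RERE count rests partly on replicate numbers 2 and 3. Without the libraries of that number it was 15 of 40, when calls over all genes fell to 894 as well, against 2136 with all libraries. Without number 3 it was 24, with 875 calls over all genes, and without the libraries that stood apart it was 33, with 1752. With 1 library of RERE left out at a time it was between 32 and 38. The WT count stayed at 39 in each of those runs.

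**Figure D2:**
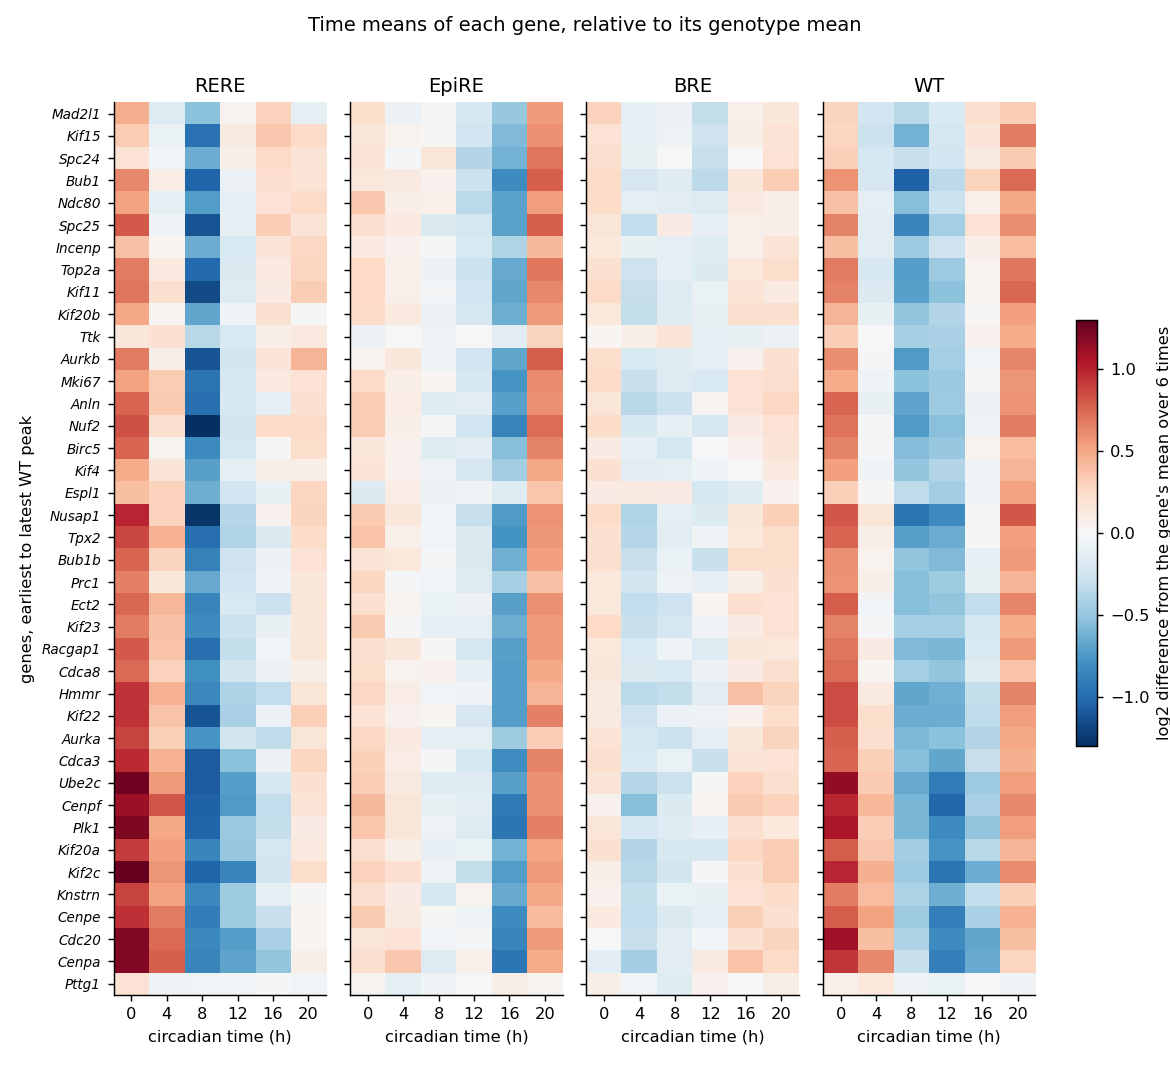
Mean of 4 libraries at each circadian time for each gene, as the log2 difference from the gene's mean over the 6 times in that genotype, with RERE, EpiRE, BRE and WT from left to right and genes ordered from the earliest to the latest fitted WT peak. RERE is highest at CT0 for 37 genes and lowest at CT8 for 39, EpiRE is highest at CT20 for 39 and lowest at CT16 for 38, and the BRE panel is pale throughout.

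Libraries at CT0 lay entirely above those at CT8 for 39 of 40 genes in RERE (6.67% of the 11087 genes), 0 in EpiRE (0.92%), 0 in BRE (3.45%) and 32 in WT (4.88%). CT0 and CT8 held the highest and lowest mean of the 40 genes in RERE and WT, so this pair of times favoured those genotypes. In EpiRE the highest and lowest means were at CT20 and CT16, and that pair was not counted. Between CT20 and CT8 the count was 32 in RERE (8.07%), 28 in EpiRE (5.03%), 0 in BRE (2.71%) and 36 in WT (6.88%). The time of the highest mean was CT0 for 37 genes in RERE, CT20 for 39 in EpiRE, and in WT CT0 for 25 and CT20 for 14. The lowest mean was at CT8 for 39 genes in RERE and at CT16 for 38 in EpiRE, while in WT it was at CT8 for 24 and at CT12 for 16. In BRE the highest mean was at CT20 for 16 genes, CT0 for 13 and CT16 for 9, and the lowest at CT4 for 26 and CT12 for 10.

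Among the checkpoint genes, Bub1, a kinase that recruits the checkpoint proteins to kinetochores, had the largest WT amplitude, 0.85 ± 0.11 (SE) with a peak at CT 20.6. Mad2l1, which encodes the inhibitor MAD2, had the smallest, 0.39 ± 0.08. In RERE the largest was that of Bub1b, 0.62 ± 0.13, the gene of BUBR1, and the smallest that of Ttk, 0.24 ± 0.07. Mad2l1 was not called in RERE (0.28 ± 0.12, limma adjusted p = 0.181), although with CT as a factor it was (adjusted p = 0.0421). In EpiRE amplitudes ran from 0.09 for Ttk to 0.42 for Bub1, and in BRE from 0.13 for Ttk to 0.33 for Bub1.

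Ttk encodes MPS1, the kinase that starts checkpoint signalling, and had the highest WT level of the checkpoint group. At CT8 Ttk measured 4.05, 4.22, 4.22 and 4.05 log2 RPKM in BRE, and 3.32, 2.95, 2.18 and 2.50 in WT. At CT12 it measured 3.67, 4.09, 3.69 and 3.96 in BRE, and 2.80, 2.79, 2.57 and 2.86 in WT. All BRE libraries lay above all WT libraries at 4 of the 6 times, CT0, CT8, CT12 and CT16. At CT20 Ttk measured 3.87, 3.76, 3.97 and 4.00 in BRE, against 3.59, 3.40, 3.91 and 3.71 in WT, and the groups overlapped.

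Over the 6 times Ttk averaged 3.97 ± 0.23 log2 RPKM in BRE, 3.16 in RERE, 3.18 in EpiRE and 3.17 ± 0.45 in WT (SD, n = 24). Its level was higher in BRE than in WT by 0.80 ± 0.09 (SE, limma adjusted p = 3.11e-09). Its fitted amplitude was lower by 0.35 ± 0.10, and its rhythm differed in the joint test of cosine and sine (limma adjusted p = 0.0016). The BRE minimum, 3.45, lay above the WT mean. Ttk overlaps no other annotated gene.

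**Figure D3:**
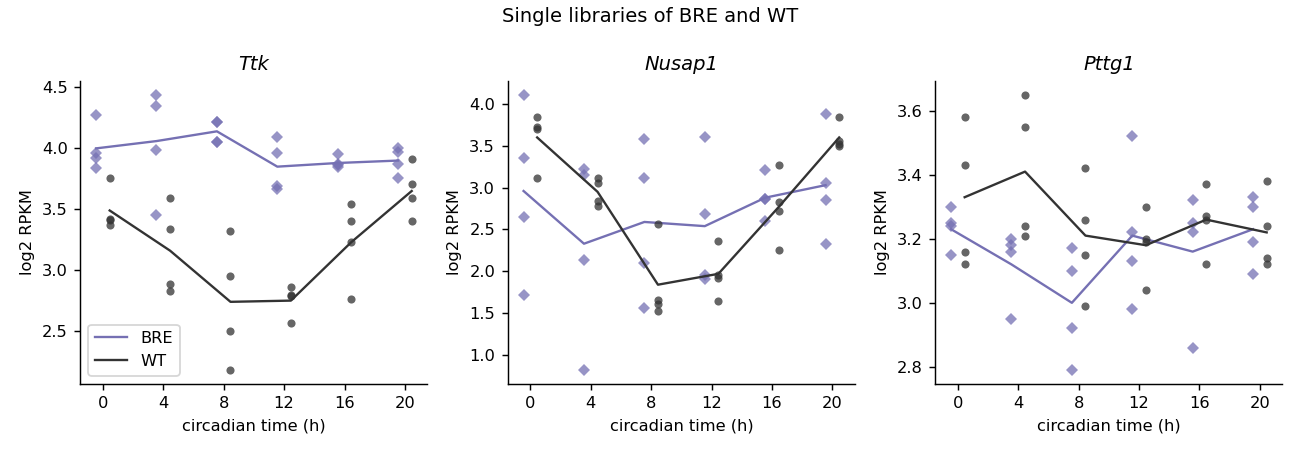
Log2 RPKM of Ttk, Nusap1 and Pttg1 in single libraries of BRE (diamonds) and WT (circles), 4 per circadian time in hours, with lines through the time means. Ttk lies higher in BRE at most times, Nusap1 at CT4 runs from 0.82 to 3.22 in BRE and from 2.78 to 3.11 in WT, and Pttg1 shows no call in either genotype.

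In the centromere and kinetochore group the largest WT amplitude was that of Cenpf, a kinetochore and corona protein (1.02 ± 0.09, peak CT 23.6), and the smallest that of Spc24, a subunit of the NDC80 microtubule-binding complex (0.37 ± 0.08, peak CT 20.6). In RERE the largest was that of Cenpa (1.01 ± 0.13), and Spc24 was not called (0.34 ± 0.12, limma adjusted p = 0.108). In EpiRE the range was 0.30 for Knstrn, the gene of kinastrin, to 0.50 for Cenpf, and in BRE 0.11 for Spc25 to 0.40 for Cenpf. The 4 subunits of the NDC80 complex peaked together in WT, Spc24 at CT 20.6, Ndc80 at CT 21.0, Spc25 at CT 21.1 and Nuf2 at CT 21.9. Cenpe, a kinetochore motor, and Cenpa, the centromeric histone H3 variant, peaked later, at CT 0.0414 and CT 0.848.

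Cenpa at CT0 measured 3.68, 3.94, 3.72 and 3.85 log2 RPKM in RERE, 2.2, 1.06, 3.09 and 3.91 in BRE, and 4.06, 3.02, 3.69 and 3.84 in WT. At CT12 it measured 2.26, 1.56, 1.19 and 2.61 in RERE, 3.53, 2.64, 2.86 and 2.31 in BRE, and 2.38, 2.18, 1.74 and 1.03 in WT. RERE and WT libraries at CT0 therefore lay above those at CT12 without overlap, and BRE libraries overlapped. The fitted BRE peak of Cenpa lay at -8.45 h relative to the WT peak, around an uncalled BRE amplitude of 0.39 ± 0.20.

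Among the kinases and passenger proteins, Plk1, the Polo kinase, had the largest amplitude in RERE (0.90 ± 0.17), in EpiRE (0.49 ± 0.16) and in WT (0.96 ± 0.12, peak CT 23.7), and in BRE it was Aurka, the spindle pole Aurora kinase (0.30 ± 0.12). Incenp, the scaffold of the passenger complex, had the smallest in all 4 genotypes, 0.44 ± 0.08 in RERE, 0.26 in EpiRE, 0.17 in BRE and 0.46 ± 0.07 in WT. Incenp at CT8 measured 2.78, 2.84, 3.09 and 2.89 log2 RPKM in RERE and 3.01, 3.19, 3.05 and 3.51 in WT. At CT20 it measured 3.59, 4.05, 3.42 and 4.19 in RERE and 4.38, 4.00, 3.88 and 3.98 in WT, above the CT8 group in each of the 2 genotypes. The partners of Incenp had WT amplitudes of 0.70 for Aurkb, 0.61 for Birc5, the gene of survivin, and 0.61 for Cdca8, the gene of borealin, and all 3 were called in RERE as well.

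Among the spindle motors and microtubule-binding proteins, Kif2c, a microtubule depolymerase, had the largest amplitude in RERE (1.09 ± 0.17, peak CT 23.5), in EpiRE (0.48 ± 0.14) and in WT (1.01 ± 0.11). Kif4, the gene of a chromokinesin, had the smallest in RERE (0.40 ± 0.11), EpiRE (0.31), BRE (0.16) and WT (0.53 ± 0.06), and Hmmr, a spindle-associated hyaluronan receptor, the largest in BRE (0.39 ± 0.17). Kif15, a motor that acts beside Kif11 in keeping spindle poles apart, had the earliest fitted peak of the genes called in both RERE and WT, CT 19.5 ± 0.95 in RERE and CT 20.1 ± 0.58 in WT (SE).

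Nusap1, which binds and bundles spindle microtubules, had the highest WT level of this group. At CT0 it measured 3.71, 3.67, 3.33 and 3.36 log2 RPKM in RERE, 3.38, 2.87, 3.70 and 2.67 in EpiRE, 2.65, 1.72, 3.35 and 4.11 in BRE, and 3.85, 3.12, 3.73 and 3.70 in WT. At CT8 it measured 1.10, 1.22, 1.57 and 1.17 in RERE, 2.77, 2.86, 2.78 and 2.72 in EpiRE, 2.10, 1.56, 3.12 and 3.58 in BRE, and 1.61, 1.66, 1.53 and 2.56 in WT. The CT0 and CT8 groups were apart in RERE and in WT, and overlapped in EpiRE and BRE.

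In the midzone and cytokinesis group, Kif20a, the motor that brings the passenger complex to the midzone, had the largest amplitude in RERE (0.76 ± 0.13), BRE (0.36 ± 0.17) and WT (0.79 ± 0.08). Kif20b, another kinesin of cytokinesis, had the smallest in RERE and WT and was not called in RERE (0.35 ± 0.12, limma adjusted p = 0.0972). With CT as a factor Kif20b was called there (adjusted p = 0.0432). In EpiRE the range was 0.29 for Prc1, which bundles antiparallel midzone microtubules, to 0.42 for Anln, and the smallest in BRE was 0.18 for Racgap1, a subunit of centralspindlin with Kif23.

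Anln encodes anillin, a scaffold of the contractile ring, and had the highest WT level of the group. At CT8 Anln measured 2.38, 2.75, 3.01 and 2.81 log2 RPKM in RERE, 3.44, 4.13, 3.66 and 3.74 in EpiRE, 3.31, 2.84, 3.95 and 4.53 in BRE, and 2.92, 3.21, 3.05 and 3.55 in WT. At CT20 it measured 3.61, 4.03, 3.54 and 4.49 in RERE, 4.57, 4.48, 4.70 and 4.20 in EpiRE, 4.57, 4.47, 4.11 and 3.70 in BRE, and 4.64, 4.40, 4.32 and 4.43 in WT. The CT20 group lay above the CT8 group without overlap in RERE, EpiRE and WT but not in BRE.

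In the anaphase and exit group, Ube2c, the ubiquitin-conjugating enzyme of the anaphase-promoting complex, had the largest amplitude in RERE, BRE and WT, and its RERE value was 1.01 ± 0.15 with a peak at CT 23.4. Cdca3, a gene named for its cell cycle expression, had the largest in EpiRE (0.44 ± 0.15). At CT0 Ube2c measured 5.05, 5.51, 5.28 and 4.95 log2 RPKM in RERE, 4.24, 4.07, 5.48 and 4.07 in EpiRE, 3.74, 3.29, 4.69 and 5.55 in BRE, and 5.63, 4.78, 5.33 and 5.12 in WT. At CT8 it measured 2.38, 2.86, 3.20 and 3.02 in RERE, 4.24, 4.27, 3.73 and 3.67 in EpiRE, 3.48, 2.91, 4.30 and 4.80 in BRE, and 3.07, 3.62, 2.89 and 4.11 in WT. RERE and WT had no overlap between these times, and EpiRE and BRE did. Cdc20, which activates the anaphase-promoting complex and relays the checkpoint, had amplitudes of 0.98 ± 0.15 in RERE, 0.35 ± 0.15 in EpiRE, 0.27 ± 0.18 in BRE and 0.95 ± 0.09 in WT, with peaks at CT 0.324 in RERE and CT 0.328 in WT.

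Espl1, the gene of the protease separase, had amplitudes of 0.46 ± 0.09 in RERE, 0.09 ± 0.08 in EpiRE, 0.18 ± 0.09 in BRE and 0.47 ± 0.07 in WT. Pttg1 encodes securin, the inhibitor that holds separase until anaphase, and was the exception of the whole set. Its amplitude was 0.07 ± 0.04 in RERE (limma adjusted p = 0.45), 0.09 ± 0.05 in EpiRE, 0.09 ± 0.04 in BRE and 0.09 ± 0.05 in WT (limma adjusted p = 0.292). At CT0 Pttg1 measured 3.25, 3.68, 3.67 and 3.33 log2 RPKM in RERE and 3.58, 3.43, 3.16 and 3.12 in WT. At CT8 it measured 3.43, 3.42, 3.09 and 3.07 in RERE and 3.26, 3.15, 2.99 and 3.42 in WT, with overlap between the times in both. Its level lay in the range of the rhythmic genes, at 3.27 ± 0.17 in WT (SD, n = 24).

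The 2 mitotic chromosome genes were called in RERE and WT. Top2a, the topoisomerase that untangles sister chromatids, had an amplitude of 0.62 ± 0.14 in RERE, 0.43 ± 0.14 in EpiRE, 0.24 ± 0.16 in BRE and 0.75 ± 0.08 in WT. Mki67, the gene of the proliferation antigen Ki-67, had the highest level of the 40 genes, 22.1 RPKM in WT, and Bub1 the lowest, 1.52 RPKM. At CT8 Mki67 measured 3.06, 3.33, 3.67 and 3.32 log2 RPKM in RERE, 4.30, 4.79, 4.31 and 4.35 in EpiRE, 3.71, 3.36, 4.55 and 5.19 in BRE, and 3.68, 3.89, 3.85 and 4.28 in WT. At CT20 it measured 4.13, 4.86, 3.91 and 4.96 in RERE, 5.20, 4.94, 5.28 and 4.69 in EpiRE, 5.20, 4.85, 4.37 and 3.92 in BRE, and 5.27, 4.99, 4.92 and 4.98 in WT. The groups were apart in RERE and WT and overlapped in EpiRE and BRE.

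**Figure D4:**
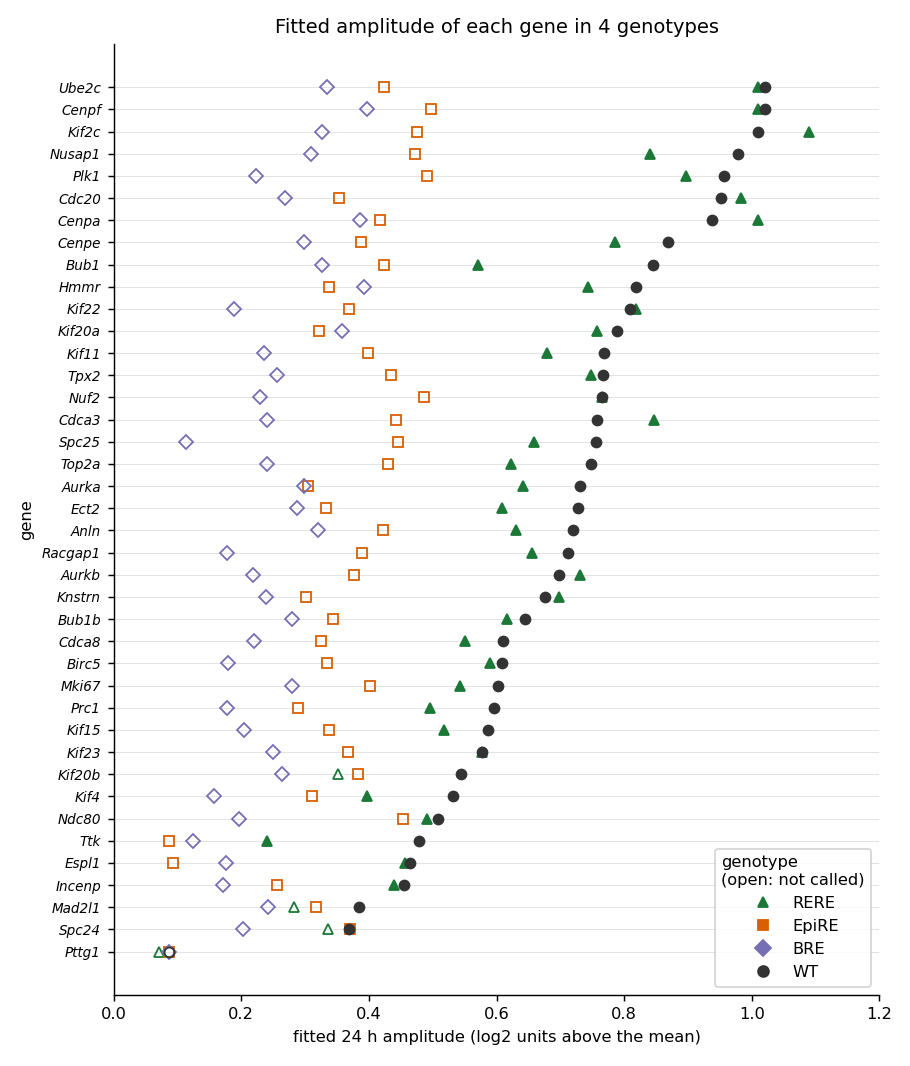
Fitted 24 h amplitude of each of the 40 genes in log2 units above the mean, for RERE (triangles), EpiRE (squares), BRE (diamonds) and WT (circles), with filled symbols for genes called rhythmic. RERE and WT symbols lie to the right of EpiRE and BRE for most genes, and Pttg1 lies near 0.09 in all 4 genotypes.

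The order of the peaks was much the same in RERE and WT. Across the 36 genes called in both, the RERE peak minus the WT peak had a median of 0.0597 h and ran from -0.6 to 0.9 h, so all 36 lay within 1 h. Pearson's r between the peaks was 0.93 and Spearman's rho 0.934 over those 36 genes, and r between amplitudes was 0.941 over 40, as descriptions over genes that share libraries. The mean peak was CT 22.4 in RERE and CT 22.4 in WT. In both genotypes Kif15, Bub1 and Ndc80 lay at the early end and Cenpa, Cdc20 and Cenpe at the late end. The SE of a WT peak was 0.398 h for Cenpa and 0.584 h for Kif15, so neighbours in this order do not differ beyond their error. Fitted peaks lay between CT20 and CT2 for 37 of the 40 genes in RERE (31.6% of all genes), 39 in EpiRE (19.4%), 10 in BRE (30.4%) and 40 in WT (25.2%). The BRE count was thus not above the share of all genes. The mean peak was CT 0.207 in EpiRE and CT 19.7 in BRE, where no single gene was called.

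**Figure D5:**
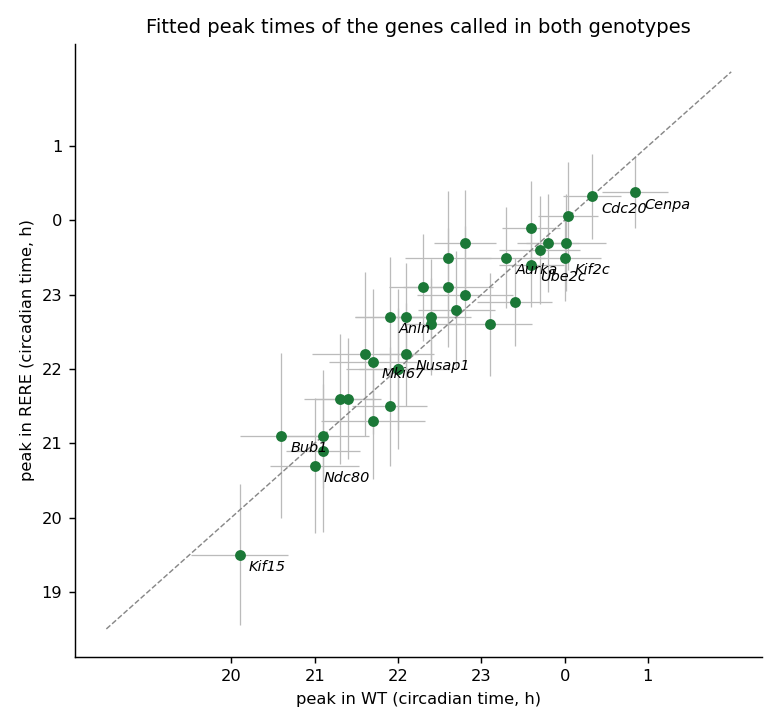
Fitted peak in RERE (vertical axis) against fitted peak in WT (horizontal axis), both as circadian time in hours, for the 36 genes called in both, with bars of 1 SE and a dashed line of equal peaks. The points follow the line from Kif15 at the early end to Cenpa at the late end, with differences of -0.6 to 0.9 h.

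RERE and WT were compared directly by the interaction of genotype with the cosine and sine. In RERE against WT 0 of 40 genes were called, as were 0.0% of 11051 genes, and the unadjusted p was under 0.05 for 0 of the 40 against 7.57% of genes. The median amplitude difference was -0.04, against -0.02 over all genes. Over all genes, amplitude was larger in RERE for 4307 of 11051. Among the 40, amplitude was lower in RERE for 33, with a median ratio of 0.916. This direction did not hold throughout, as the median difference was 0.04 without replicate 4, and the semi-range of the time means (highest less lowest, divided by 2), the measure used with CT as a factor, was larger in RERE by a median of 0.14. The fitted differences ran from -0.27 ± 0.20 for Bub1 to 0.09 ± 0.16 for Cdca3. By role they ran to -0.10 for Spc25, -0.09 for Aurka, -0.14 for Nusap1, -0.19 for Kif20b and -0.13 for Top2a at the low end, and to 0.07 for Cenpa, 0.03 for Aurkb and 0.08 for Kif2c at the high end. A p above the threshold does not show that the amplitudes were equal.

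Fitted amplitudes were lower in EpiRE than in WT for most of these genes, with no gene past the threshold. In EpiRE against WT 0 of 40 genes were called, against 1.57% of 11059 genes, with a lowest limma adjusted p of 0.0803 for Hmmr, and 25 of 40 passed at an unadjusted p under 0.05, against 16% of genes. Over all genes, amplitude was larger in EpiRE for 3155 of 11059. Among the 40 the median difference was -0.32, against -0.04 over all genes. Their amplitude was lower in EpiRE for 38 of 40, and the median ratio was 0.533. The median difference was -0.21 without replicate 4, and by the semi-range of the time means it was -0.06, against -0.02 over all genes. The unadjusted count was 12 to 22 with 1 replicate number left out. The largest differences by role were -0.42 ± 0.21 for Bub1, -0.52 ± 0.19 for Cenpf, -0.47 ± 0.21 for Plk1, -0.54 ± 0.18 for Kif2c, -0.47 ± 0.15 for Kif20a, -0.60 ± 0.19 for Ube2c and -0.32 ± 0.17 for Top2a. The smallest were those of Mad2l1 (-0.07), Spc24 (0.00167), Incenp (-0.20), Kif4 (-0.22), Kif20b (-0.16), Pttg1 (0.000157) and Mki67 (-0.20). Ttk was called without replicate 1 (limma adjusted p = 0.00871), with all 96 libraries in the model (0.0486) and without the 4 libraries that stood apart (0.041), against 0.104 otherwise.

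BRE and WT differed in rhythm for 11 of the 40 genes, against 5.69% of 11016 genes, and all 11 had a lower amplitude in BRE. The median difference over the 40 was -0.44, against -0.04 over all genes. Amplitude was lower in BRE for 39 of the 40, and the median ratio was 0.351. Over all genes, amplitude was larger in BRE for 2818 of 11016. The called kinetochore genes were Cenpa (-0.55 ± 0.23, limma adjusted p = 0.00152), Cenpe (-0.57 ± 0.22, 0.0247) and Cenpf (-0.62 ± 0.23, 0.00466). The called kinases were Plk1 (-0.73 ± 0.24, limma adjusted p = 0.0371) and Aurka (-0.43 ± 0.15, 0.0295), beside Ttk of the checkpoint. The other called genes were the motor Kif2c (-0.69 ± 0.22, limma adjusted p = 0.00514), Hmmr (-0.43 ± 0.19, 0.0328), Kif20a (-0.43 ± 0.19, 0.0374), Ube2c (-0.69 ± 0.23, 0.00957) and Cdc20 (-0.68 ± 0.21, 0.00353). Of the uncalled genes Spc25 (-0.64 ± 0.21), Racgap1 (-0.54 ± 0.20), Bub1 (-0.52 ± 0.23) and Top2a (-0.51 ± 0.19) also had large amplitude differences, with errors like those of called genes. The test takes cosine and sine together, so a call can rest on amplitude, peak time or both. Mad2l1 (-0.14), Spc24 (-0.17), Incenp (-0.28), Kif4 (-0.37), Kif20b (-0.28), Mki67 (-0.32) and Pttg1 (6.09e-05) had the smallest differences of their roles. The count of 11 rests on all 4 replicates and on the cosine. It was 2 to 6 of 40 with 1 replicate number left out and 1, Ttk, with CT as a factor.

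Against the 2 other restored genotypes, RERE amplitudes were larger for most members. In RERE against EpiRE 0 of 40 were called, against 1.05% of 11042 genes, and 6 passed at an unadjusted p under 0.05, against 11.5%, with 2 of 40 without the libraries that stood apart. Over all genes, amplitude was larger in RERE for 7050 of 11042. Among the 40 the median difference was 0.27, against 0.02 over all genes, with 36 of 40 larger in RERE. The largest were 0.63 ± 0.22 for Cdc20, 0.62 ± 0.22 for Kif2c and 0.59 ± 0.23 for Cenpa, followed in their roles by Kif20a (0.44), Plk1 (0.41), Bub1b (0.27) and Top2a (0.19). The smallest were Mad2l1 (-0.03), Spc24 (-0.03), Kif20b (-0.03), Pttg1 (-0.02), Kif4 (0.09), Mki67 (0.14) and Incenp (0.18). With CT as a factor, 37 of 40 passed unadjusted, against 16.1% of genes, and Nuf2, Knstrn, Cdc20 and Cdca3 were called (limma adjusted p of 0.0247 to 0.0353), against 1.5%.

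In RERE against BRE 5 of 40 were called, against 4.19% of 10991 genes, all larger in RERE. They were Cenpa (0.62 ± 0.25, limma adjusted p = 0.00272), Cenpf (0.61 ± 0.27, 0.0247), Kif2c (0.77 ± 0.25, 0.0189), Ube2c (0.68 ± 0.25, 0.0405) and Cdc20 (0.71 ± 0.24, 0.0161). Over all genes, amplitude was larger in RERE for 7273 of 10991. The median difference over 40 was 0.37, against 0.03 over all genes, with 39 larger in RERE. In the other roles the largest were Plk1 (0.67), Racgap1 (0.48), Top2a (0.38) and Bub1b (0.34), and the smallest over the roles were Mad2l1 (0.04), Spc24 (0.13), Incenp (0.27), Kif4 (0.24), Kif20b (0.09), Pttg1 (-0.02) and Mki67 (0.26). The count was 0 to 6 with 1 replicate number left out, 1 (Cenpa) with CT as a factor and 3 without the libraries that stood apart, where Cenpf and Ube2c were not called. The 3 comparisons with WT share its 24 libraries, and the comparisons with RERE share the RERE libraries.

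Levels averaged over the 6 times were compared next, and Ttk, Espl1 and Spc24 were the genes called, all in BRE against WT. In RERE against WT 0 of 40 genes were called, against 2.14% of 11051 genes. The median difference was -0.14, against -0.01 over all genes. Of the 40 values 39 were below 0, while over all genes 5094 of 11051 were above 0. An unadjusted p under 0.05 was held by 2 of the 40, against 13.8% of genes. The lowest in their roles were Bub1b (-0.18), Spc25 (-0.27), Aurkb (-0.14), Nusap1 (-0.26), Kif23 (-0.20), Cdca3 (-0.21) and Mki67 (-0.18), and the highest were Ttk (-0.01), Cenpa (-0.12), Aurka (-0.08), Kif4 (-0.06), Prc1 (-0.05), Pttg1 (0.03) and Top2a (-0.18). In EpiRE against WT 0 of 40 were called, against 2.23% of 11059 genes, and the differences ran from -0.19 ± 0.14 for Ndc80 to 0.09 ± 0.08 for Espl1, with an unadjusted p under 0.05 for 0 of 40, against 10.2% of genes.

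In BRE against WT 3 of 40 were called, against 36.9% of 11016 genes, so the share among these genes was below that of all genes. The median difference was -0.07, against -0.05 over all genes. The median SD among BRE libraries of a time was 0.69 for the 40 genes, against 0.15 over all genes. The lower share called therefore does not show smaller differences in level. Beside Ttk, Espl1 was higher in BRE, at 2.74 ± 0.33 in BRE and 2.43 ± 0.42 in WT (SD, n = 24), a difference of 0.31 ± 0.09 (SE, limma adjusted p = 0.00791). Spc24 was lower in BRE, at 2.29 ± 0.61 in BRE and 2.64 ± 0.40 in WT, a difference of -0.35 ± 0.14 (limma adjusted p = 0.0446), and was not called after median centring (adjusted p = 0.074), without an expression filter (0.0631) or on log2 of RPKM plus 1 (0.0502). Genes higher in BRE made up 12.5% of those tested and genes lower 24.4%. At CT8 Espl1 measured 2.79, 2.61, 2.88 and 3.11 log2 RPKM in BRE and 2.31, 2.24, 2.02 and 1.81 in WT, without overlap. All BRE libraries lay above all WT libraries for Espl1 at only 2 of the 6 times. Its highest time mean was 2.86 at CT4 in BRE and 2.95 at CT20 in WT. The other differences ran from -0.25 ± 0.15 for Ndc80 to 0.11 ± 0.19 for Kif2c. Of 10 tested suprabasal keratinocyte genes, 9 were called higher in BRE than in WT (median difference 0.37), and their summed level ran from 11800 to 19600 RPKM in BRE and from 9370 to 15600 in WT. Of 11 basal keratinocyte genes, 2 were called higher and 2 lower (median -0.05). Their part in the level results was not tested.

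The BRE libraries of 1 time differed widely at most times, CT16 excepted, and did so together across genes. The median SD among the 4 libraries of a time was 0.43 in RERE, 0.45 in EpiRE, 0.69 in BRE and 0.33 in WT over the 40 genes, beside 0.16, 0.17, 0.15 and 0.16 over all genes. Spread within times exceeded the spread between time means for 5 of the 40 genes in RERE, 24 in EpiRE, 40 in BRE and 3 in WT. Over all 11087 genes the counts were 9133 in RERE, 10180 in EpiRE, 10460 in BRE and 8731 in WT, so this held for most genes in each genotype. The SD was larger in BRE than in WT for 38 of 40 genes, with a median ratio of 1.91, against 0.943 over all genes. The exceptions were Ttk, with a ratio of 0.55, and Pttg1, with 0.897. In limma on the log2 SD of each group of 4 libraries, a test chosen after seeing these values, 0 of 40 passed adjustment (0.0% of genes), and 26 of 40 had an unadjusted p under 0.05, against 7.58% of 11015 genes. The same test gave 1 of 40 unadjusted in RERE against WT (4.9% of genes) and 1 of 40 in EpiRE against WT (4.87%), with 0 adjusted in both.

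Nusap1 at CT4 shows the size of it, at 3.15, 3.22, 0.82 and 2.14 log2 RPKM in BRE and 3.06, 3.11, 2.84 and 2.78 in WT. Mki67 at CT4 measured 4.84, 4.88, 2.79 and 3.82 in BRE and 4.41, 4.71, 4.36 and 4.15 in WT. Replicate 3 was the lowest BRE library for both genes, as it was for Cenpa, Ube2c and Ttk. In that library the summed T cell markers stood at 62.2 RPKM, against 72.5, 80.7 and 73.3 in the other BRE libraries of CT4, the mean of 19 S phase genes at 2.82 log2 RPKM, against 3.25, 3.08 and 3.19, and the mean of basal keratinocyte genes at 8.21, against 7.97, 7.84 and 8.05. The part of these in the result was not tested.

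Deviations of libraries from their time mean were shared by the genes. Over the 780 pairs of members the median correlation across 24 libraries was 0.838 in RERE, 0.812 in EpiRE, 0.94 in BRE and 0.788 in WT, beside 0.0316, 0.0209, 0.0606 and 0.064 over pairs of all genes, with points that share library and depth. Pttg1 had median correlations with the other members of -0.269 in RERE, -0.402 in EpiRE, 0.00699 in BRE and 0.191 in WT. Ttk had 0.614, 0.29, 0.39 and 0.181 in the same order of genotypes.

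Markers of other cells moved with time in some groups. The summed level of 7 T cell genes was 93.3 ± 23.1 RPKM at CT0 and 48.9 ± 9.08 at CT8 in RERE, and 99.5 ± 15.9 at CT0, 66.3 ± 22.2 at CT8 and 44.4 ± 12.9 at CT12 in WT (SD, n = 4). Its range over 24 libraries was 37.0 to 111 RPKM in RERE, 32.8 to 152 in EpiRE, 53.1 to 122 in BRE and 26.0 to 117 in WT, and no gene of the list was at 0 throughout. In limma 1 of the 7 genes was called rhythmic in RERE (19.4% of all genes), 0 in EpiRE (0.0%), 0 in BRE (1.14%) and 1 in WT (33.1%). Their part in the rhythm of the mitotic genes was not tested. Fibroblast markers summed to medians of 1.55 RPKM in RERE, 1.48 in EpiRE, 1.59 in BRE and 1.57 in WT.

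Other mitotic genes, from lists that were also written with results of these data known, showed a smaller share of calls. The first list covered further kinetochore, centromere, checkpoint, spindle, centrosome, condensin and cytokinesis genes, among others. Of its 70 tested genes, 39 were called rhythmic in RERE, 0 in EpiRE, 0 of 69 in BRE and 52 in WT. The median amplitude of these genes was 0.34 in RERE, 0.24 in EpiRE, 0.20 in BRE and 0.39 in WT. The 2 most abundant of them in WT were not rhythmic there. Ncaph2, a condensin II subunit, had an amplitude of 0.05 ± 0.03 in RERE and 0.04 ± 0.03 in WT (limma adjusted p = 0.368), and Numa1, a spindle pole protein, 0.05 ± 0.02 in RERE and 0.04 ± 0.02 in WT (limma adjusted p = 0.311). A second list held 16 genes of the anaphase-promoting complex, the enzyme that Ube2c and Cdc20 serve. It covered subunits, the activator Fzr1 and the ubiquitin-conjugating enzyme Ube2s. Of these 16 genes, 2 were called in RERE, 0 in EpiRE, 0 in BRE and 3 in WT. Their median amplitudes were 0.07, 0.04, 0.06 and 0.07 in that order. The shares called over all genes were 19.4% in RERE, 0.0% in EpiRE, 1.14% in BRE and 33.1% in WT. In BRE against WT, 10 of 70 genes of the first list and 0 of 16 genes of the second differed in rhythm, against 5.69% of all genes.

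The authors had tested rhythm with BIOCYCLE and JTK_CYCLE, which search for periodic signals. In the authors' deposited tables a BIOCYCLE q-value under 0.05 was held by 0 members in RERE (0.947% of genes), 0 in EpiRE (0.0%), 0 in BRE (0.0%) and 37 in WT (4.22%). The JTK_CYCLE q-value in the authors' deposited tables was under 0.05 for 21 members in RERE (5.47% of genes), 0 in EpiRE (0.0%), 0 in BRE (0.0133%) and 38 in WT (9.72%). The lowest BIOCYCLE q-value of a member in RERE in the authors' deposited table was 0.0724.

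The gene models of 22 members overlap another annotated gene and 7 of these overlap a protein-coding one, namely Cdca8, Kif4, Nusap1, Kif20a, Prc1, Ube2c and Cdc20. Kif22 and Kif4 have a named pseudogene copy. The sources used here do not say whether reads were assigned by strand, and reads of such pairs could be divided between genes.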

How the data were processed

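Per the submitters' processing notes, the authors used edgeR (version not given), featureCounts 1.6.0, SAMtools 1.3.1, HISAT2 2.2.1 and Trimmomatic 0.36 with mm10. Per the labels' protocols, epidermis was separated with dispase, and libraries were made with a stranded kit and unique molecular identifiers. Whether counting used strand or duplicates were removed is a point not given in the sources used here. Each deposited value per gene and library was log2 RPKM, made by the authors with a prior that the values show to be 0.25 reads. The p-value and q-value of BIOCYCLE and JTK_CYCLE were the authors' own and were used only where named. Another 96 columns of single libraries in the JTK_CYCLE tables carry codes without a match in the labels and were left out. For EpiRE and BRE the leading digits of these codes run out of order. Whether the times of EpiRE and BRE libraries were reassigned before deposit was not tested, so their CT were used as the column names give them.

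From the log2 values, reads were recovered for 22461 of 22497 genes, with 99.96% of values within 0.1 read of a whole number, and these served for depth and limma-voom alone. Tests used limma 3.58.1 in R 4.3.3 (empirical Bayes with a mean trend) on the log2 values. Rhythm was an F test of a 24 h cosine and sine in 24 libraries, differential rhythm the F test of their interaction with genotype in 48 libraries, and level the two-sided test of genotype with CT fitted as a factor. Genes were tested where the libraries compared averaged 0 log2 RPKM or more, and p-values adjusted by Benjamini-Hochberg over all of them. The methods were tested on simulated data. Errors come from the spread between libraries. The members and gene lists were chosen with earlier results of these data known. Per-library values are given for the gene with the highest WT level in each of 7 roles. In each comparison the genes with the largest and smallest effect in each role are named, with every gene of a called or uncalled minority of 5 or fewer. The values of Cdc20, Espl1, Pttg1, Kif15 and Top2a and the promoter stretches were chosen for display after their values were seen. Replicate numbers are the labels' own and were not taken to pair the mice. Alternatives changed the centring, pseudocount, filter, replicates, block, test and model. Lists of other cell types covered T cells, Langerhans and myeloid cells, fibroblasts, endothelium, melanocytes, sebocytes, hair follicle, red cells, suprabasal and basal keratinocytes, and early dissociation genes.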

Additional observations from a re-analysis of the deposited data

Results flagged for a closer look

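Single libraries lay far from the other 3 of their group in 11 of 192 groups tested, where chance gives about 1 in 20. EpiRE CT12 replicate 3 was above the others for Nusap1 (3.36 log2 RPKM, others 2.18 to 2.29), Anln (4.29, others 3.49 to 3.61), Mki67 (4.97, others 3.92 to 4.02) and the mean of the 40 genes (2.76, others 2.08 to 2.12). WT CT8 replicate 4 was above the others for Cenpa (3.03, others 2.16 to 2.30) and Nusap1 (2.56, others 1.53 to 1.66). Ube2c stood at 5.48 in EpiRE CT0 replicate 3 (others 4.07 to 4.24) and Mki67 at 4.79 in EpiRE CT8 replicate 2 (others 4.30 to 4.35). Incenp stood at 3.88 in RERE CT4 replicate 1 (others 3.46 to 3.48) and Ttk at 3.76 in WT CT0 replicate 4 (others 3.37 to 3.42). Anln in WT CT4 replicate 4 was below the others, at 3.48 (others 3.84 to 3.89). In EpiRE CT12 replicate 3 the mean of 19 S phase genes was 3.66 log2 RPKM, against 3.01, 2.69 and 3.05 in the other libraries, and in WT CT8 replicate 4 it was 3.77, against 3.25, 3.35 and 3.48.

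Rhythm differed between BRE and WT by limma's interaction test for Ttk (-0.354), Cenpa (-0.552), Cenpe (-0.569), Cenpf (-0.622), Plk1 (-0.734), Aurka (-0.432), Kif2c (-0.685), Hmmr (-0.427), Kif20a (-0.43), Ube2c (-0.688) and Cdc20 (-0.682). It differed between RERE and BRE for Cenpa (0.621), Cenpf (0.611), Kif2c (0.768), Ube2c (0.675) and Cdc20 (0.714). Values in brackets are fitted log2 amplitude in the first-named genotype minus that in the second. The test takes cosine and sine together, not amplitude alone.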

How the results depend on the processing

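With 1 replicate number left out, the genes called rhythmic ranged from 15 to 34 of 40 in RERE (32 to 38 with 1 library left out), and those differing in rhythm from 0 to 1 in EpiRE against WT, 2 to 6 in BRE against WT and 0 to 6 in RERE against BRE. With CT as a factor, 1 gene differed in BRE against WT, 1 in RERE against BRE and 4 in RERE against EpiRE. With all 96 libraries in the model, 1 differed in EpiRE against WT. Without the 4 libraries that stood apart, 1 differed in EpiRE against WT and 3 in RERE against BRE. The cause was not tested. Replicate numbers were not taken to pair the mice, since same-numbered libraries of a genotype had a median correlation of -0.00122 with 48 of 240 pairs over 0.1, against 0.00459 and 22.9% for other numbers, and 25 of 96 libraries correlated best with their own number. Between genotypes at the same time, same-numbered libraries of BRE and WT had a median correlation of 0.0894 with 45.8% of pairs over 0.1, against -0.0318 and 16.7% for other numbers, those of RERE and BRE 37.5% over 0.1 against 19.4%, and those of EpiRE and WT 8.33% against 34.7%. No comparison had every pair over 0.1. With the replicate block the counts of members stayed at 36 in RERE and 39 in WT for rhythm, 11 in BRE against WT and 5 in RERE against BRE for differential rhythm, and 3 in BRE against WT for level. No gene called for level or differential rhythm changed direction under the alternatives run, but the median difference over the 40 genes in RERE against WT, -0.04, was 0.04 without replicate 4 and 0.14 with CT as a factor. In the EpiRE against WT comparison of spread, where the median SD ratio was 1.16, it was 0.868 without replicate 3. The match of EpiRE and BRE values to CT rests on column names. With 24 libraries a genotype, amplitude errors were near 0.15 in RERE, so small differences were not detectable.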

Other observations

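Genes that act before mitosis differed between the genotypes too, by the same tests. Of 16 genes of mitotic entry, 11 were called rhythmic in RERE (19.4% of all genes), 0 in EpiRE (0.0%), 0 in BRE (1.14%) and 13 in WT (33.1%). In BRE against WT 7 of the 16 differed in rhythm, against 5.69% of all genes. Of 19 S phase genes, 17 differed in rhythm in BRE against WT, with a median amplitude difference of -0.15. Wee1, the kinase that restrains entry into mitosis, peaked almost opposite to the mitotic genes, at CT 11.3 in RERE (amplitude 0.69 ± 0.09, limma adjusted p = 1.94e-05) and at CT 11.8 in WT (0.58 ± 0.13, limma adjusted p = 0.0056). In EpiRE its amplitude was 0.10 ± 0.12 and in BRE 0.43 ± 0.11 at CT 11.8 (limma adjusted p = 0.0738). Wee1 differed in rhythm between RERE and EpiRE (limma adjusted p = 0.0419), with an amplitude difference of 0.59 ± 0.16. In that comparison 0 of the 40 mitotic genes were called. Rbbp4, a histone-binding protein shared by the MuvB core and chromatin complexes, had an amplitude of 0.09 ± 0.04 in RERE and 0.09 ± 0.04 in WT (limma adjusted p = 0.134).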
